A study of Mus musculus with 60 samples.

Results

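The AP-1 and BATF factors described here are 10 genes of the 55414 in the count table: Fos, Fosb, Fosl1 and Fosl2 of the FOS family, Jun, Junb and Jund of the JUN family, Batf and Batf3, and Atf3. They were found by matching the Ensembl identifiers of the table to gene symbols, and all 10 had at least 1 read. Fos and Batf lie on chromosome 12, Junb and Jund on chromosome 8, and Atf3 and Batf3 on chromosome 1. Fosb lies on chromosome 7, Fosl1 on chromosome 19, Fosl2 on chromosome 5 and Jun on chromosome 4.

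Messenger RNA was sequenced from naive CD8 T cells that negative selection had enriched from spleens of NOD mice, a strain prone to autoimmune diabetes. OT-I, a receptor transgene that fixes T cell specificity, was present in every mouse, and Sh2b3 was either wild type or Sh2b3-/-, without an adaptor protein that restrains cytokine receptor signalling. Fresh cells make the 0 h groups. The others were cultured for 2, 6 or 24 h with anti-CD3 coated on the plate at 10 µg/mL and anti-CD28 in solution at 5 µg/mL, a stimulus that does not use the antigen of OT-I. Some 24 h cultures also received an IL-2 blocking antibody at 10 µg/mL. Time and antibody in both genotypes give 10 groups over 60 libraries. Each genotype had 11 libraries of fresh cells, 5 per time point without the antibody, and 4 that received it. Animal ages, and which of 2 RNA kits served which library, are not given in the sources used here. Whether libraries of a group came from different mice or cultures is not stated either, and p-values therefore describe the spread of these libraries. Since 0 h cells were not cultured, stimulation and culture cannot be told apart, and in bulk RNA fewer cells with a transcript and less transcript per cell cannot be told apart.

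AP-1 is a dimer of leucine zipper proteins. JUN proteins pair with themselves or with FOS proteins, which cannot form stable dimers among themselves, and the pairs bind a short DNA site found in many cytokine genes. In T cells the receptor, CD28 and the MAP kinases switch on FOS and JUN genes within minutes, and AP-1 binds beside NFAT at genes such as Il2. BATF and BATF3 have no activation domain and bind with JUN proteins and IRF4, and ATF3 is a stress-induced member that pairs with JUN. Fos, Fosb, Jun, Junb and Atf3 are also immediate early genes that tissue dissociation and cell sorting can switch on.

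Total counts ran from 13987029 to 35476519 per library, with a median of 17994613. Sh2b3 transcript in the knockout groups was 14.8 to 20.9% of the matching wild-type mean. The 6 CD8 T cell markers were present in every group, at a summed level of 1731 to 5339 CPM (counts scaled to library size). In wild type their sum was 4317 to 5302 CPM at 0 h and 2070 to 2342 CPM at 2 h. Since CPM is relative to the other transcripts of a library, a lower CPM need not mean fewer copies per cell. Markers of B cells summed to at most 64.8 CPM, of monocytes and macrophages to 18.6, of neutrophils to 4.23, of NK cells to 118.0, of erythroid cells to 155.3, of dendritic cells to 177.9 and of CD4 and regulatory T cells to 79.4 CPM. Gamma delta T cell markers summed to 76.1 to 848 CPM. The labels number the libraries in 4 runs, called sets A to D here. Set A holds 0, 2 and 6 h, sets B and C hold 0 and 24 h, and set D the libraries that received anti-IL-2. What a run stands for is not given in the sources used here. Anti-IL-2 and set D therefore cannot be told apart.

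In unstimulated cells the AP-1 transcripts were dominated by Junb, Fos, Jun and Jund. Levels between genes are given as RPKM, the CPM after TMM scaling divided by the exon length in kilobases, as mean ± SD. In wild-type cells at 0 h (n = 11) Junb stood at 783 ± 357 RPKM, Fos at 438 ± 247, Jun at 271 ± 147 and Jund at 225 ± 66.9 RPKM. Fosb followed at 39.3 ± 25.2, Batf at 13.6 ± 2.12 and Fosl2 at 4.42 ± 0.978 RPKM. Atf3 (0.351 ± 0.399), Fosl1 (0.101 ± 0.146) and Batf3 (0.00687 ± 0.0153 RPKM) were near the detection limit. Within 1 SD the neighbours from Junb down to Jund overlapped, as did Fosb with Batf, and Atf3 with Fosl1 and Batf3. Jund stood apart from Fosb, and Batf from Fosl2.

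The 0 h level of the immediate early members was uneven between libraries. Fos ranged from 525 to 2067 CPM in wild type (median 798) and from 192 to 1468 CPM in the knockout (median 856). Jun ranged from 338 to 1686 CPM in wild type (median 650.2) and from 156.7 to 1525 CPM in the knockout (median 952). Junb, a JUN protein that activates less strongly than c-Jun, ranged from 938 to 3309 CPM in wild type (median 1372) and from 381 to 3045 CPM in the knockout (median 1760.0). For these 3 genes the ranges of the genotypes overlapped across most of their extent. Fosl2 and Batf were steadier, at 30.5 to 63.2 CPM (median 42.7) and 12.9 to 23.5 CPM (median 18.9) in wild type.

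Much of the 0 h spread followed the library sets. Over both genotypes Fos averaged 1353 ± 442 CPM over the 10 libraries of set A, 539 ± 254 over the 4 of set B and 660.2 ± 139.9 CPM over the 8 of set C. Jun averaged 1222 ± 334, 348 ± 138.2 and 690.4 ± 160.2 CPM in the same sets, and Fosb 351 ± 131.1, 82.7 ± 48.6 and 207 ± 81.4 CPM. As log2(CPM + 0.5), 9 of the 10 members were higher in set A than in set C, by a median of 0.64. Over all 16794 genes past the filter the median was 0.02, with 8992 higher in set A. Of 39 other immediate early and handling genes, 36 were higher in set A, by a median of 0.40. Set B lay below set C by a median of 0.50 over the members (1 of 10 above) and 0.30 over the handling genes (7 of 39 above). Over all genes past the filter the median of set B against set C was -0.03, with 7478 of 16794 above. Knockout replicate 6 of set B was the lowest of its group in 5 of the 7 members with a mean of at least 1 CPM, with Fos at 192, Fosb at 21.6, Jun at 156.7, Junb at 381 and Jund at 102 CPM. Of the handling genes, the heat shock gene Hspa1a, a marker of handling stress, was picked after its values were seen and was not split by set. It ranged from 0.484 to 359 CPM in wild type at 0 h (mean 84.1, n = 11) and stood at 1.07 ± 0.634 CPM at 2 h (n = 5). The part of handling in the 0 h levels was not tested.

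**Figure D1:**
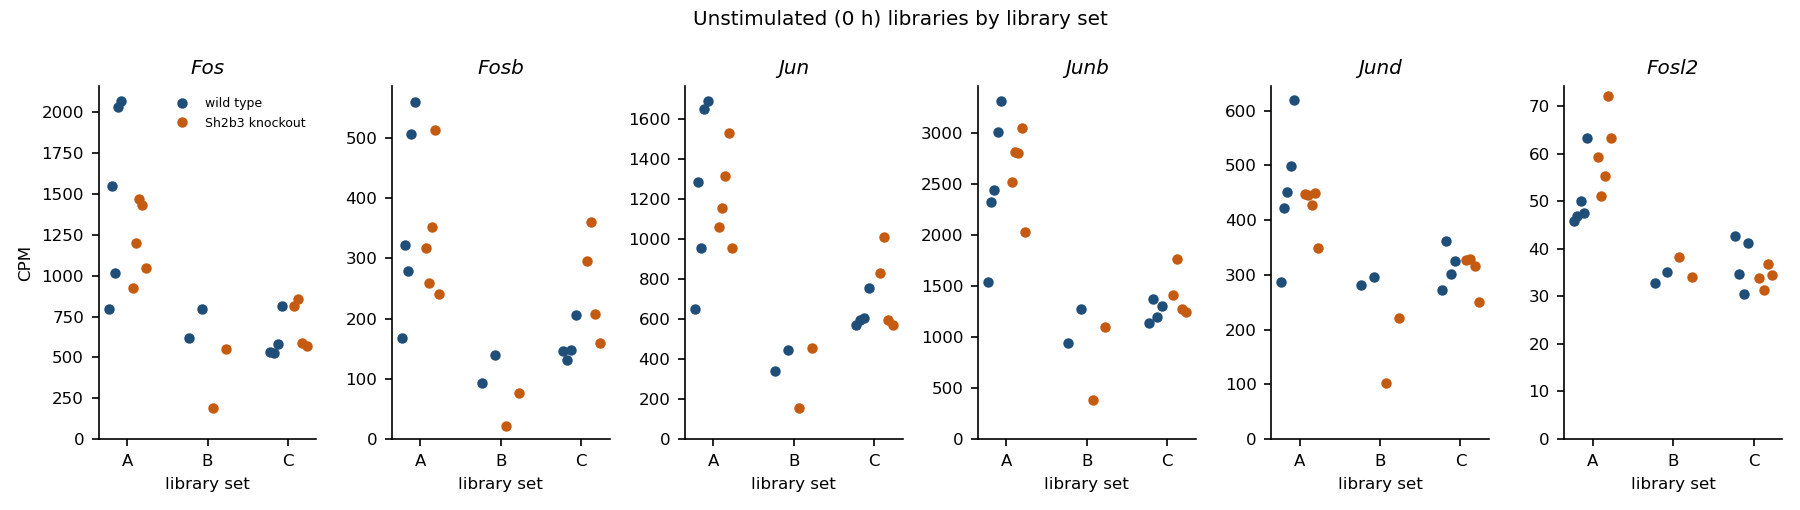
Level in CPM (vertical axes, each from 0) of 6 members in the 22 unstimulated libraries, by library set and genotype, 1 point per library. Fos, Fosb, Jun and Junb were highest in set A, where Fos averaged 1353 CPM, and the lowest point of each of these panels is knockout replicate 6 in set B.

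After 2 h of stimulation the FOS and JUN genes that dominated fresh cells were lower and a different set was higher. In wild type all 9 members tested changed: 4 were higher, against 26.4% of all 14431 genes, and 5 were lower, against 27.2%. In the knockout 8 of 9 changed, 3 higher and 5 lower, where 23.9 and 24.5% of 14726 genes were higher and lower. Batf3 did not pass the filter on low counts in these fits. Calls are at an adjusted p under 0.05 in edgeR's quasi-likelihood test, with the library set as a term where sets were mixed.

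Fos, the first FOS gene to respond to most stimuli, fell to 89.8, 80.7, 66.1, 87.6 and 93.7 CPM in the 5 wild-type libraries at 2 h. All lay below the lowest wild-type 0 h library at 525 CPM. The fitted log2 change was -4.17 ± 0.26 (SE; adjusted p = 7.73e-12, edgeR), a 17.9-fold fall. In the knockout Fos stood at 44.1, 94.0, 98.7, 113 and 219.5 CPM, the highest above the lowest knockout 0 h library at 192 CPM, and changed by -3.43 ± 0.41. Jun, which encodes c-Jun, fell further, to 22.9 to 36.0 CPM in wild type, all below the lowest 0 h value of 338 CPM. Its log2 change was -5.49 ± 0.27 in wild type and -4.63 ± 0.55 in the knockout, the largest fall among the members in both genotypes. Fosb, a FOS protein with a long and a truncated form, changed by -3.87 ± 0.31 and -2.63 ± 0.48, and Junb by -2.90 ± 0.17 and -2.49 ± 0.27. Jund, the JUN gene that most cells express without a stimulus, changed by -2.32 ± 0.17 and -1.83 ± 0.16.

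Fosl2, which encodes the FOS-related protein FRA-2, moved the other way. It stood at 537, 549.6, 570.4, 614 and 639 CPM in wild type at 2 h and at 486, 755, 810.0, 1075 and 1292 CPM in the knockout. The highest 0 h library of either genotype had 72.1 CPM, so the groups did not overlap. The log2 change was 3.51 ± 0.11 in wild type (adjusted p = 4.57e-23, edgeR) and 3.86 ± 0.23 in the knockout (adjusted p = 1.43e-12, edgeR). Atf3 rose from at most 2.69 CPM at 0 h to 15.99 to 33.5 CPM in wild type and 13.8 to 90.9 CPM in the knockout, by 4.13 ± 0.50 and 4.90 ± 0.72 on the log2 scale. Fosl1, which encodes FRA-1, had 37 reads in 11 wild-type libraries at 0 h and 128 reads in 5 libraries at 2 h, and its log2 change was 2.17 ± 0.60. Batf rose less, in wild type by 0.66 ± 0.16 (adjusted p = 0.00062, edgeR), from 12.9 to 23.5 CPM at 0 h to 24.1 to 41.3 CPM at 2 h. In the knockout its change was 0.17 ± 0.14 (adjusted p = 0.343, edgeR).

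**Figure D2:**
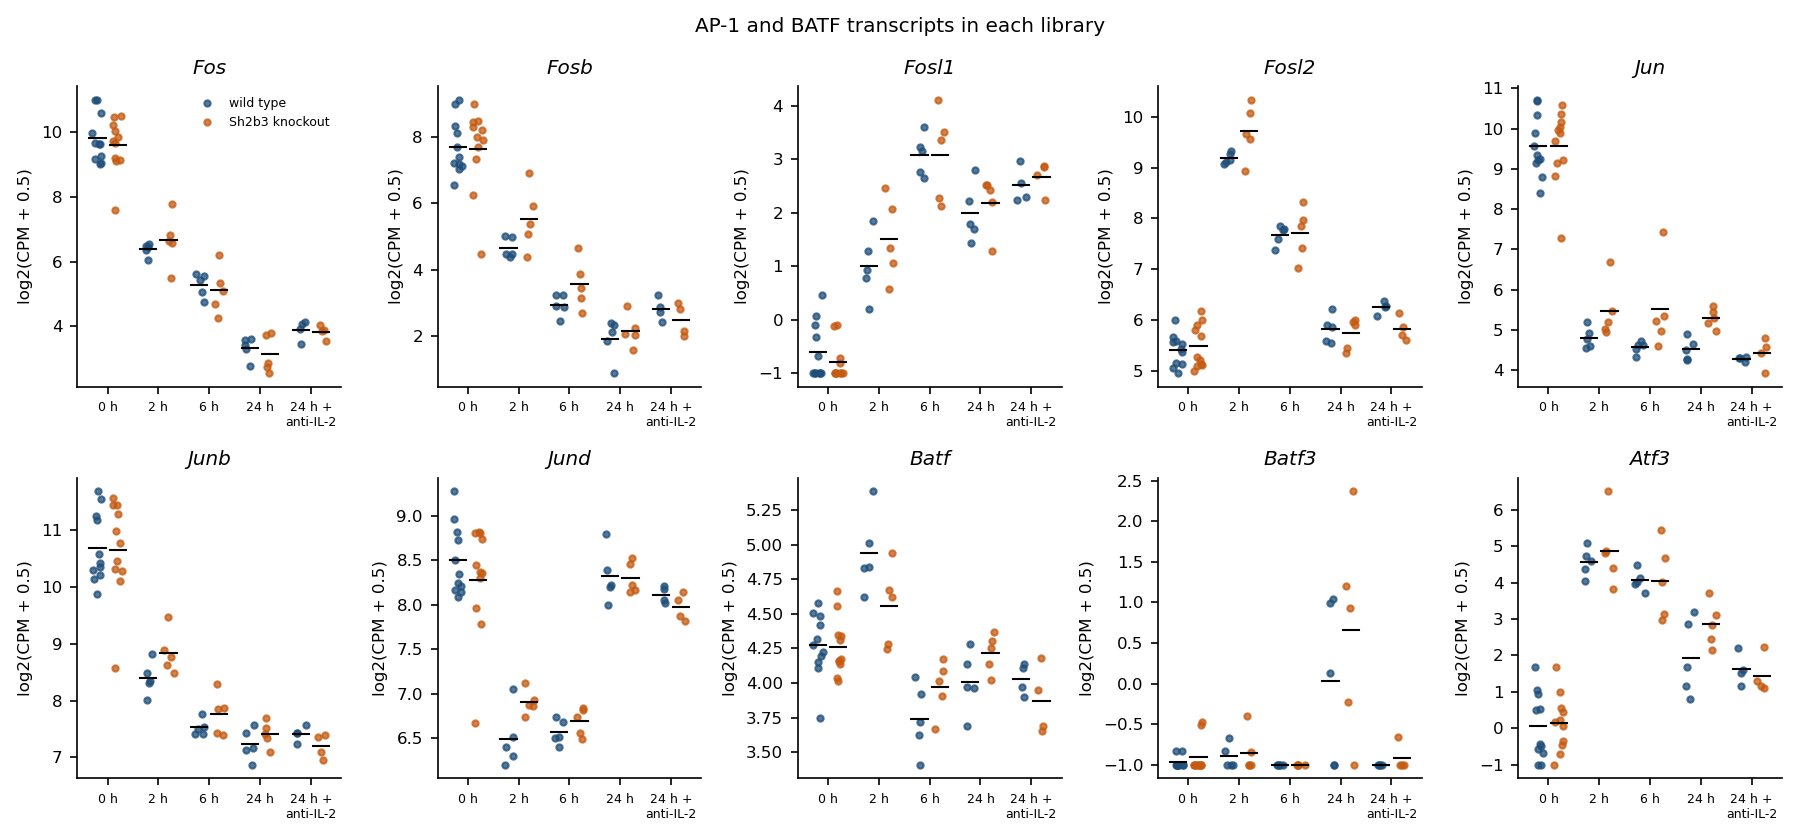
Level of each of the 10 members as log2(CPM + 0.5) in all 60 libraries (1 point each) by group, with black lines at the group mean of the plotted values. Fos, Fosb, Jun and Junb were highest at 0 h, Fosl2 and Atf3 at 2 h and Fosl1 at 6 h, and Batf3 was at or near 0 outside the 24 h cultures without anti-IL-2.

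The 110 bases before the RefSeq start (GRCm38.p6) are given 5′ to 3′ on the gene's strand. They show the sequence next to the start sites of Fos, Fosb, Junb and Jun, which fell, and of Fosl2, which rose. Jund, which also fell, is not shown, and its whole window held none of the sites searched. Capitals mark TGACG, the core of the cyclic AMP response element, or in Jun the whole TGACATCA, an AP-1 variant site.
Fos: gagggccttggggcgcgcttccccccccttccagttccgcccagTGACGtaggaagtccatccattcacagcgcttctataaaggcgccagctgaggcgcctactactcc
Fosb: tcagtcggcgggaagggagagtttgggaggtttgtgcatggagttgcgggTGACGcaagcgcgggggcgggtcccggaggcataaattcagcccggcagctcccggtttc
Junb: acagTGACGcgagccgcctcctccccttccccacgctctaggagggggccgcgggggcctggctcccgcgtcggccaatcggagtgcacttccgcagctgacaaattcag
Jun: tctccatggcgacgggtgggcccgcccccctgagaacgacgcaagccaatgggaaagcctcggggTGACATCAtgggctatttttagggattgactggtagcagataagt
Fosl2: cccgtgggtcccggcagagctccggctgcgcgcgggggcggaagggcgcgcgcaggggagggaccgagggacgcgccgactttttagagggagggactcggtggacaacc
These stretches lie at chr12:85473780-85473889 (plus strand), chr7:19310046-19310155 (minus), chr8:84978749-84978858 (minus), chr4:95052223-95052332 (minus) and chr5:32136362-32136471 (plus strand). Whole windows of 300 bases, from 250 before the start to 50 after it, were searched on both strands for 9 of the 10 members. Fosl1 was not matched. The AP-1 site TGACTCA (or TGAGTCA), held by 5.202% of all 32851 windows, the element TGACGTCA, held by 1.79%, and the CArG box, the site of SRF, held by 1.629%, were found in none of the 9. TGACATCA or its reverse complement was in 3.619% of windows and only in that of Jun among the members, from 45 to 38 bases before the start. The 5 letters TGACG or CGTCA, which the longer element contains and which were added after the windows were seen, were in 20.812% of all windows and in 5 of the 9 members: Fos, Fosb, Junb, Batf and Atf3. A match is a description of the letters, and no match says only that they are not in this window.

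Between 2 and 6 h Fosl1 rose and 5 members fell: Fos, Fosb and Junb for the second interval in a row, and Fosl2 and Batf after their 2 h levels. In wild type 1 of 9 members was higher and 5 were lower, against 18.8 and 18.5% of all genes. In the knockout the counts were also 1 higher and 5 lower, against 17 and 13.8%. The members called were the same in both genotypes.

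Fosl1 stood at 5.78, 6.26, 8.38, 8.93 and 11.7 CPM in wild type at 6 h, all above the 2 h range of 0.654 to 3.10 CPM. The log2 change was 2.34 ± 0.52 in wild type (adjusted p = 0.000554, edgeR) and 1.83 ± 0.57 in the knockout (adjusted p = 0.0159, edgeR). The knockout call did not hold without replicate 3 at 6 h, where the change was 1.48 (adjusted p = 0.0592, edgeR). Fosl2 fell to 165 to 231 CPM in wild type, below every 2 h library, with a log2 change of -1.46 ± 0.10, and in the knockout by -1.95 ± 0.22. Fos changed by -1.05 ± 0.24 and -1.52 ± 0.39, Fosb by -1.74 ± 0.32 and -2.05 ± 0.49, and Junb by -0.85 ± 0.17 and -1.03 ± 0.26 in wild type and knockout. Batf returned to 10.1 to 15.97 CPM in wild type, with a change of -1.20 ± 0.16, and to 12.2 to 17.6 CPM in the knockout (-0.56 ± 0.14). Jun, Jund and Atf3 did not pass the test in either genotype: their log2 changes lay between -0.81 ± 0.59 (Atf3, knockout) and 0.37 ± 0.48 (Jun, knockout).

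By 24 h Fos, Fosb, Jun and Junb were far below 0 h, Fosl1, Fosl2 and Atf3 were above it, and Jund had returned near its 0 h level. In wild type 3 of 9 members were higher and 4 lower, against 27.8 and 31.6% of all genes. In the knockout 4 were higher and 4 lower, against 30.1 and 29.8%.

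Fos at 24 h stood at 6.32, 9.38, 10.1, 11.3 and 11.6 CPM in wild type and at 5.34, 6.16, 6.81, 12.6 and 13.3 CPM in the knockout. The 2 genotypes overlapped, and both lay below every 0 h library. The log2 change from 0 h was -6.06 ± 0.29 in wild type (adjusted p = 5.16e-14, edgeR) and -5.90 ± 0.46 in the knockout (adjusted p = 4.41e-10, edgeR). Fosb changed by -5.31 ± 0.35 and -5.03 ± 0.57, Jun by -4.54 ± 0.26 and -3.70 ± 0.53, and Junb by -3.00 ± 0.17 and -2.63 ± 0.27. For Jun the fall in the knockout was -2.85 within set B and -4.21 within set C.

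Jund stood at 256, 295, 299, 334 and 442 CPM in wild type at 24 h, above every wild-type 2 h library (73.4 to 132.1 CPM) and within the 0 h range of 272 to 619 CPM, apart from the lowest library. Its change from 0 h was 0.09 ± 0.16 in wild type (adjusted p = 0.643, edgeR) and 0.48 ± 0.15 in the knockout (adjusted p = 0.00732, edgeR). Without knockout replicate 6 at 0 h the knockout value was 0.23 (adjusted p = 0.0571, edgeR), and it was 0.95 within set B and 0.19 within set C. Fosl2 was higher by 0.66 ± 0.10 in wild type and 0.70 ± 0.20 in the knockout, but within set B of the knockout by 0.31 (adjusted p = 0.184, edgeR). Atf3 was higher by 3.71 ± 0.62 and 4.15 ± 0.74, called in either set alone but of unequal size: 6.44 and 7.46 within set B, and 2.49 and 3.29 within set C. Fosl1, with 403 reads in the 5 wild-type libraries and 510 reads in the 5 knockout libraries, was at 2.20 to 6.50 and 1.93 to 5.23 CPM. It changed by 5.70 ± 0.69 and 6.88 ± 0.81, from few reads at 0 h. There sets B and C held 5 and 2 reads in wild type and 0 and 4 in the knockout. Over the alternative settings the change ran from 4.24 to 6.35 in wild type and from 5.46 to 9.84 in the knockout. Batf was at 12.4 to 18.9 CPM in wild type and 15.7 to 20.1 CPM in the knockout, with changes of -0.26 ± 0.16 and 0.14 ± 0.14 that did not pass the test. Within set C the wild-type change was called (-0.47, adjusted p = 0.0271, edgeR). Over the alternative settings it ran from -0.47 to 0.23.

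**Figure D3:**
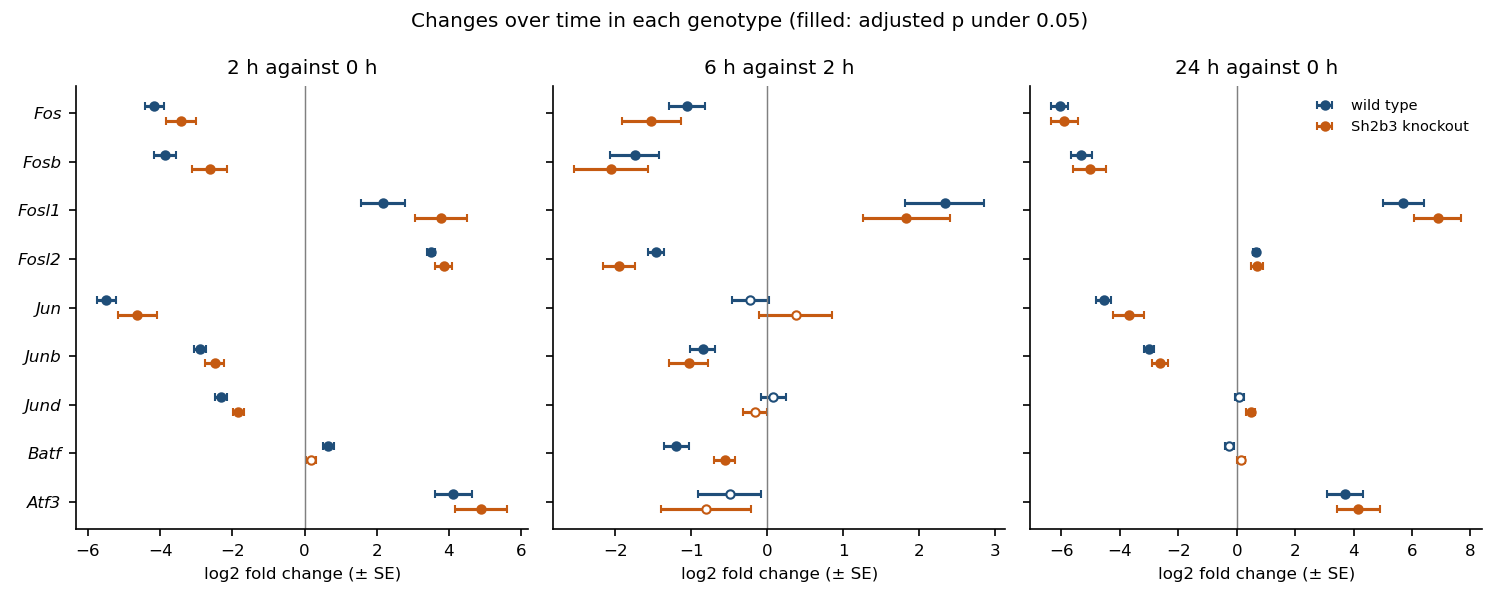
Log2 fold change ± SE of 9 members (rows) between time points, by genotype, with filled points at an adjusted p under 0.05 in edgeR's test and open points otherwise. Fosl2 and Atf3 stand right of 0 at 2 h in both genotypes while Fos, Fosb, Jun, Junb and Jund stand left, and Fosl1 is the member right of 0 with a filled point between 2 and 6 h.

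The make-up of both families changed with these moves. As a share of the summed RPKM of the 4 FOS genes, Fos made up 90.9 ± 1.39% in wild type at 0 h (n = 11), and Fosl2 1.08%. At 2 h (n = 5) Fosl2 made up 59.9 ± 3.07% and Fos 35.3 ± 2.49%, and at 6 h they made up 49.6 ± 2.86% and 38.3 ± 2.87%. At 24 h Fosl2 stood at 47.3 ± 6.19%, Fos at 33.3 ± 5.75% and Fosl1, which was 0.0173% at 0 h, at 14.996 ± 7.84%. In the knockout the 2 h shares were 62.7 ± 5.73% for Fosl2 and 31.0 ± 4.52% for Fos. The summed level of the 4 genes was 482 ± 273 RPKM at 0 h, 100.5 ± 8.46 at 2 h, 43.2 ± 7.64 at 6 h and 12.4 ± 1.42 at 24 h in wild type.

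Among the JUN genes Junb had the largest mean share until 6 h and Jund at 24 h. In wild type Junb held 60.9% of the summed RPKM at 0 h, 69.9 ± 1.52% at 2 h, 55.5 ± 2.95% at 6 h and 24.9 ± 4.58% at 24 h. Jund held 18.6% at 0 h and 72.4 ± 5.13% at 24 h, and Jun 20.5% and 2.72 ± 0.651%. The summed level of the 3 JUN genes was 1279 ± 564 RPKM at 0 h, 212 ± 44.7 at 2 h, 144 ± 10.8 at 6 h and 268 ± 45.0 RPKM at 24 h. These shares depend on the length assigned to each gene: with the longest transcript in place of all exons, Fosl2 held 65.4% of the FOS family in wild type at 2 h and 53.4% at 24 h. In counts not divided by length Fosl2 held 84.1 and 76.7%, above Fos in each case, and the same order of Junb over Jund at 2 h and Jund over Junb at 24 h was seen with all 3 measures.

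**Figure D4:**
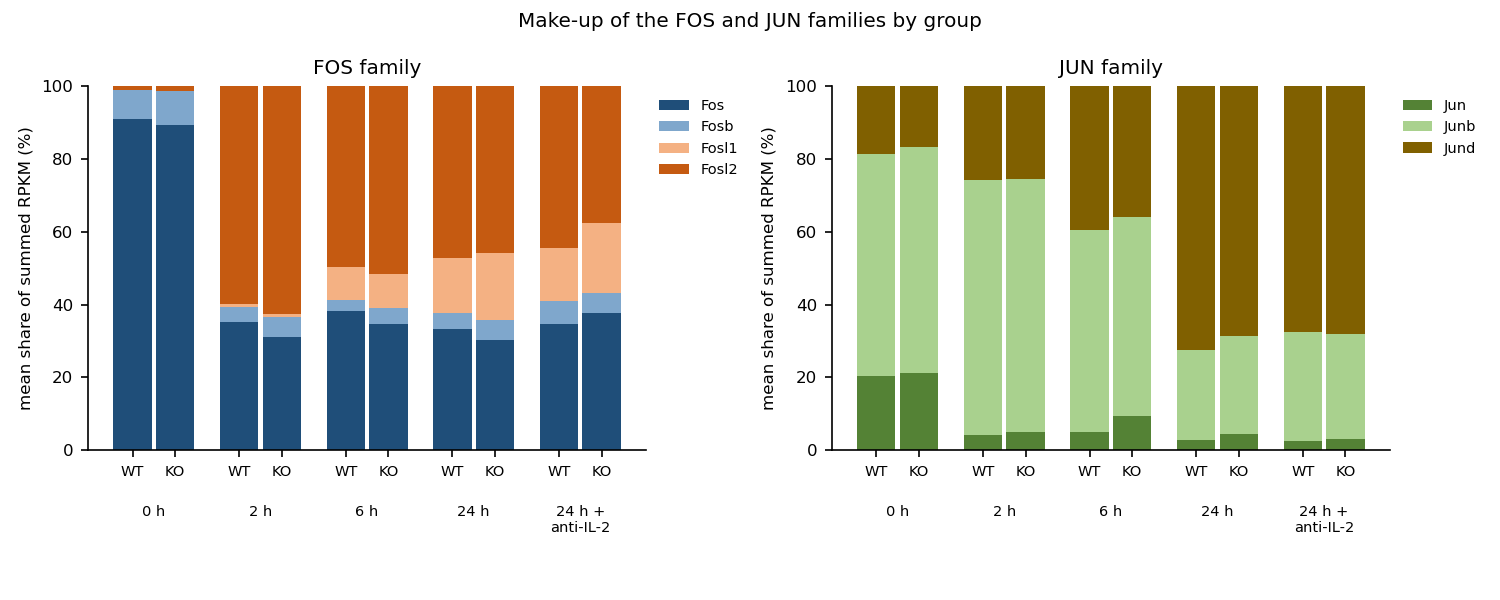
Mean share (percent, vertical axis from 0 to 100) of each gene in the summed RPKM of the FOS family (left) and JUN family (right), as stacked bars for wild type (WT) and knockout (KO) in each group. Fos fills most of the FOS bars at 0 h (90.9% in wild type) and Fosl2 is the largest part from 2 h in wild type, while Jund grows from 18.6 to 72.4% of the JUN bars in wild type.

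The order of levels across all members also moved. In wild type at 2 h Junb was highest at 148 ± 30.5 RPKM, followed by Fosl2 (60.1 ± 4.49), Jund (55.2 ± 14.04), Fos (35.5 ± 4.62) and Batf (21.8 ± 4.67 RPKM). Atf3 (11.1 ± 3.06), Jun (8.74 ± 1.66), Fosb (4.04 ± 0.888) and Fosl1 (0.815 ± 0.455 RPKM) came next, and only Fosl2 with Jund and Atf3 with Jun overlapped within 1 SD among these neighbours. At 24 h Jund (195 ± 42.7 RPKM) and Junb (65.9 ± 12.5) stood apart at the top, then Batf at 11.2 ± 1.73, Jun at 7.13 ± 1.37, Fosl2 at 5.89 ± 1.16 and Fos at 4.15 ± 0.901 RPKM. Of these last 4, Batf stood apart from Jun, and the other neighbours overlapped within 1 SD.

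Batf3, the factor that type 1 dendritic cells require and that supports memory CD8 T cells, was barely detected. It had 311 reads over all 60 libraries and at least 1 read in 16 of them. In the 24 h cultures without anti-IL-2 it had 82 reads in 3 of 5 wild-type libraries, at 0.593, 1.49 and 1.56 CPM, and 206 reads in 4 of 5 knockout libraries, at 0.352, 1.40, 1.81 and 4.67 CPM. The genotypes overlapped. With anti-IL-2 it had 0 reads in the 4 wild-type libraries, which allows up to 0.0360 CPM over the group from 3 counts, counting error only, and 3 reads in 1 of 4 knockout libraries. Summed markers of dendritic cells, which express Batf3, were 27.2 CPM in the median wild-type library at 0 h, 59.04 CPM at 24 h and 48.1 CPM at 24 h with anti-IL-2, and their part in the Batf3 reads was not tested.

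Between genotypes no member was called at 0, 2 or 6 h. At 0 h none of the 8 members tested passed, against 0.633% of 12802 genes. None had an unadjusted p under 0.05 in edgeR's test, against 10.4% of genes, and none was called by DESeq2. The largest difference, knockout against wild type, was -0.23 ± 0.21 (Fos, log2, adjusted p = 0.771, edgeR), and that of Jun was 0.00 ± 0.19.

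At 2 h none of 9 members was called, against 0.0647% of genes, and none by DESeq2, while 8 lay above 0 with a median of 0.59 and 6 had an unadjusted p under 0.05 in edgeR's test. Of all genes 51.8% lay above 0, with a median of 0.01, and 13.1% had an unadjusted p under 0.05. Fosl2 was 0.59 ± 0.21 higher in the knockout (adjusted p = 0.299, edgeR), Fosb 1.11 ± 0.45 (adjusted p = 0.348), Jun 0.81 ± 0.35 (adjusted p = 0.375) and Jund 0.38 ± 0.14 (adjusted p = 0.281). Batf, also among the 6, went the other way, with a difference of -0.40 ± 0.15 (adjusted p = 0.304, edgeR). Knockout replicate 3 was the highest of its group in 7 of 9 members, with Fos at 219.5, Fosb at 119.5, Jun at 103, Junb at 714, Fosl2 at 1292 and Atf3 at 90.9 CPM. Knockout replicate 5 was the lowest in 7. Without knockout replicate 3 at 2 h the difference was 0.42 for Fosl2, 0.61 for Fosb, 0.35 for Jun and 0.06 for Fos. Among the fresh knockout cells, replicate 10 was the highest of its group in 6 of 7 members.

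At 6 h none of 9 members was called by edgeR or DESeq2, against 0.0306% of genes, and 2 had an unadjusted p under 0.05, against 5.68% of genes. Jun stood at 23.7, 30.9, 36.7, 40.1 and 174 CPM in the knockout and 19.6, 22.5, 24.2, 24.2 and 26.2 CPM in wild type, so that 4 of 5 knockout libraries lay above all wild-type libraries. Its difference was 1.37 ± 0.49 (adjusted p = 0.804, edgeR), and 0.47 without knockout replicate 3 at 6 h, the library at 174 CPM. Fosb differed by 0.77 ± 0.33 (adjusted p = 0.847, edgeR), and Fos, Fosl2 and Jund by -0.07, 0.08 and 0.10.

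At 24 h 1 of 10 members was called, against 0.372% of 12906 genes, and it was Jun. Jun stood at 18.7, 18.9, 22.3, 24.6 and 29.2 CPM in wild type and at 31.0, 35.6, 38.8, 43.0 and 48.0 CPM in the knockout, without overlap. The difference was 0.79 ± 0.15 on the log2 scale, or 1.72-fold (adjusted p = 0.0364, edgeR). It was 0.62 within set B and 0.91 within set C, neither called. Summed marker levels also differed at 24 h. For gamma delta T cells the median library of wild type and knockout had 284.5 and 153.7 CPM, with ranges that did not overlap. For naive T cells the medians were 3820.0 and 2546 CPM, with ranges that overlapped. For NK cells they were 45.9 and 97.9 CPM, with ranges of 18.4 to 54.8 and 32.4 to 118.0 CPM. Only 1 of the 5 NK cell markers had a mean of at least 1 CPM in each group. The part of these cell types in the Jun difference was not tested. The Jun call was lost without 8 of the 10 libraries left out in turn, with the difference between 0.72 and 0.90 and adjusted p from 0.00403 to 0.189 (edgeR), and without the set term (0.78, adjusted p = 0.230, edgeR). The other difference with an unadjusted p under 0.05, which 11.7% of genes had, was that of Atf3, at 1.07 ± 0.38 (adjusted p = 0.281, edgeR), with 1.23 to 8.63 CPM in wild type and 3.98 to 12.5 CPM in the knockout. Within set C it was 1.73 and within set B 0.18. Fos, Fosl2 and Jund differed by -0.18 ± 0.26, -0.10 ± 0.10 and -0.05 ± 0.13.

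With anti-IL-2 none of 9 members differed between genotypes by edgeR, against 0.35% of 13441 genes. Fosl2 stood at 67.3, 75.9, 76.8 and 83.0 CPM in wild type and at 48.5, 51.3, 57.7 and 70.3 CPM in the knockout, with 1 knockout library inside the wild-type range. The difference was -0.41 ± 0.11 (adjusted p = 0.179, edgeR), and DESeq2 called it (-0.40, adjusted p = 0.0472). Junb, at -0.21 ± 0.10, was the other member with an unadjusted p under 0.05, which 9.48% of genes had. Jun differed by 0.17 ± 0.16 (adjusted p = 0.805, edgeR).

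Anti-IL-2 was compared with the untreated 24 h cultures of the same genotype. In the knockout 2 of 9 members were called, both lower, against 5.27% of 13678 genes. Jun fell from 31.0 to 48.0 CPM without the antibody to 14.7, 21.1, 23.3 and 27.2 CPM with it, without overlap, by 0.87 ± 0.18 on the log2 scale (adjusted p = 0.0145, edgeR). Atf3 fell from 3.98, 4.97, 6.69, 8.22 and 12.5 CPM to 1.63, 1.72, 1.95 and 4.24 CPM, overlapping in 1 library, by 1.61 ± 0.40 (adjusted p = 0.0324, edgeR). Against set B or set C alone the Jun difference was -0.87 or -0.88 and that of Atf3 -1.87 or -1.42, called in each. Left out in turn, 1 of 9 libraries ended the Jun call and 5 of 9 that of Atf3: without knockout replicate 4 with anti-IL-2 the adjusted p was 0.0586 for Jun and 0.120 for Atf3 (edgeR).

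In wild type none of 9 members was called with anti-IL-2 by edgeR or DESeq2, against 4.4% of 13273 genes, and 3 had an unadjusted p under 0.05, against 20.5% of genes. Jun stood at 18.05, 19.1, 19.4 and 19.6 CPM with the antibody, inside the 18.7 to 29.2 CPM without it apart from the lowest, and changed by -0.26 ± 0.15 (adjusted p = 0.382, edgeR). Fosl2 changed by 0.41 ± 0.14 (adjusted p = 0.122, edgeR), Fosb by 0.93 ± 0.34 (adjusted p = 0.145) and Fos by 0.58 ± 0.22 (adjusted p = 0.146). The values and calls depended on the untreated set. Atf3 changed by -1.52 against set B alone (adjusted p = 0.00654, edgeR) and by 0.47 against set C alone. Fosl2 changed by 0.70 (adjusted p = 0.000197, edgeR) and 0.22. Both genes were called against set B and not against set C. Against set C alone Fosb (1.10), Fosl1 (0.99) and Junb (0.33) were called, all higher with the antibody. These comparisons share the untreated 24 h libraries with the comparison of genotypes at 24 h.

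**Figure D5:**
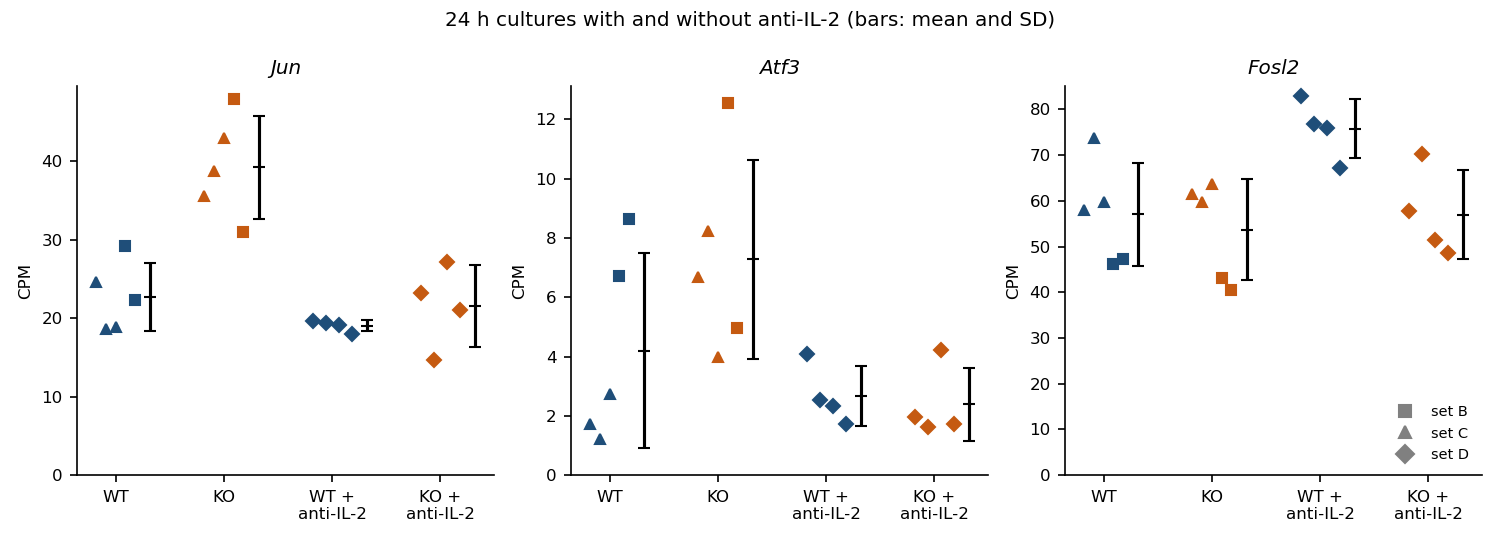
Level in CPM (vertical axes from 0) of Jun, Atf3 and Fosl2 in each 24 h library of wild type (WT) and knockout (KO), without and with anti-IL-2, with the mean and SD as bars and the library set as the marker shape. Jun in the untreated knockout (31.0 to 48.0 CPM) lies above every library of the other 3 groups, and Atf3 in untreated wild type splits by set.

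No difference between genotypes in the response itself was called. Of the 10 members none passed for genotype by time at 2 h, at 6 h or at 24 h, where 0, 0 and 0.14% of 15762 genes passed, and none passed for genotype by anti-IL-2, where 0% of 14778 genes did (edgeR). DESeq2 called none of them either. Unadjusted p fell under 0.05 for 4 members at 2 h, 1 at 6 h, 0 at 24 h and 1 with anti-IL-2, and for 6.35, 5.06, 12.02 and 4.40% of all genes. Batf changed by 0.38 ± 0.18 less in the knockout at 2 h (log2 interaction -0.38, adjusted p = 0.782, edgeR), and Jund fell by 0.59 ± 0.21 less (interaction 0.59, adjusted p = 0.602, edgeR). The anti-IL-2 interaction of Jun was -0.61 ± 0.24 (adjusted p = 1, edgeR) and that of Atf3 -0.95 ± 0.70.

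The wider set of leucine zipper factors that pair or compete with AP-1 moved in both directions. Of 34 such genes 31 were tested over time in wild type. At 2 h 14 were higher and 5 lower, where 26.4 and 27.2% of all genes were, with a median log2 change of 0.30, against -0.05 over all genes. Crem, a cyclic AMP responsive factor, rose by 3.86 ± 0.17, Bach2, which competes with AP-1 for its sites in CD8 T cells, by 1.83 ± 0.09, and Mafg by 1.91 ± 0.11. At 6 h against 2 h 3 were higher and 9 lower, against 18.8 and 18.5% of all genes, and Crem changed by -1.92 ± 0.15. At 24 h against 0 h 12 were higher and 10 lower, against 27.8 and 31.6%, with Bach2 at 1.25 ± 0.08 and Xbp1, a factor of the unfolded protein response, at 1.25 ± 0.11. In the knockout the 2 h counts were 15 higher and 3 lower of 31, against 23.9 and 24.5%, with Crem at 4.25 ± 0.25 and Bach2 at 2.06 ± 0.14.

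Between genotypes 1 of 26 of these genes tested was called at 0 h, against 0.633% of all genes. It was Maf, which was lower in the knockout by 0.78 ± 0.18 (log2 difference -0.78, adjusted p = 0.0338, edgeR). None was called at 2, 6 or 24 h, where 0.0647, 0.0306 and 0.372% of all genes were. With anti-IL-2 1 of 29 was called in wild type, against 4.4% of all genes: Bach2, which rose by 0.50 ± 0.12. In the knockout 2 of 29 were called, against 5.27%: Mafk and Atf1, which fell by 0.62 ± 0.13 and 0.34 ± 0.09.

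Genes upstream of AP-1, the 33 MAP kinases, their regulators and ternary complex factors listed, changed over time in both directions. In wild type 19 of 33 were higher and 7 lower at 2 h, where 26.4 and 27.2% of all genes were, with a median of 0.34. At 24 h 8 were higher and 16 lower, where 27.8 and 31.6% of all genes were, with a median of -0.22. Map2k3, a kinase that activates p38, rose by 2.56 ± 0.13 at 2 h and Braf by 1.41 ± 0.10, and Elk3, a ternary complex factor, fell by 0.98 ± 0.08. None of the 33 was called between genotypes at any time or with anti-IL-2, where at most 0.633% of all genes were. Rasgrp1, an exchange factor that acts downstream of the T cell receptor, differed by -0.37 ± 0.10 at 2 h (adjusted p = 0.209, edgeR) and -0.43 ± 0.11 at 24 h (adjusted p = 0.140, edgeR). With anti-IL-2 1 of 33 was called in wild type and 2 in the knockout, all higher, against 4.4 and 5.27% of all genes. Map3k5 rose in both genotypes, by 0.41 ± 0.09 in wild type and 0.55 ± 0.12 in the knockout.

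Textbook AP-1 and NFAT target genes were mostly higher after stimulation. Of 25 listed, 20 were tested in wild type: 15 were higher and 2 lower at 2 h, where 26.4 and 27.2% of all genes were, with a median of 1.72. At 24 h 17 were higher and 2 lower, where 27.8 and 31.6% of all genes were, with a median of 3.67. Il2ra, the high-affinity IL-2 receptor chain, rose by 4.65 ± 0.21 at 2 h and 6.25 ± 0.21 at 24 h, and Odc1, the first enzyme of polyamine synthesis, by 2.51 ± 0.11 and 3.21 ± 0.11. Between genotypes 1 of 16 tested was called at 0 h, 1 of 18 at 2 h, 0 of 20 at 6 h and 1 of 21 at 24 h. Of all genes 0.633, 0.0647, 0.0306 and 0.372% were called. Odc1 was higher in the knockout at 0 h (0.27 ± 0.06, adjusted p = 0.0338, edgeR) and Il2ra was lower at 2 h (-0.76 ± 0.12, adjusted p = 0.0442, edgeR). Lta, the gene of lymphotoxin alpha, was higher at 24 h (1.64 ± 0.26, adjusted p = 0.0186, edgeR). With anti-IL-2 5 of 21 were lower in the knockout, where 5.27% of all genes were called, among them Lta (-2.23 ± 0.27), Il2ra (-1.09 ± 0.12) and the granzyme gene Gzmb (-4.30 ± 0.50). In wild type, where 4.4% of all genes were called, 1 of 20 was higher (Xcl1, 0.81 ± 0.14) and 2 were lower (Vim, -1.89 ± 0.32, and Gzmb, -3.19 ± 0.66).

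Other immediate early genes also moved in both directions. Of 39 named genes outside AP-1, 10 were higher and 18 lower in wild type at 2 h, against 26.4 and 27.2% of all genes, and 11 higher and 23 lower at 24 h, against 27.8 and 31.6%. Dusp1, a phosphatase of MAP kinases, fell by 3.36 ± 0.13 at 2 h and Ppp1r15a, a stress response gene, by 2.93 ± 0.16, while Egr3 and Egr2, which the T cell receptor induces, rose by 4.81 ± 0.17 and 4.72 ± 0.19. Egr1 stood at 155 ± 45.0 CPM in wild type at 0 h and 756 ± 127 CPM at 2 h. Between genotypes at 0 h 2 of 38 tested were called, against 0.633% of all genes. Egr3 was lower in the knockout by 0.72 ± 0.08 (log2 difference -0.72, adjusted p = 1.64e-06, edgeR) and Egr2 by 0.56 ± 0.12.

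The genes whose log2 CPM ran most closely with each member over all 60 libraries are a description, since all points share library depth, set and time. Among 9316 genes Fos, Fosb and Junb had the same 3 closest genes, Ppp1r15a, Zfp36 (which encodes an RNA decay factor) and Dusp1, with Pearson r from 0.96 to 0.98. Fosl2 ran with Vgll4 (r = 0.98), Zswim4 and Tgif1 (both 0.97), and Jun with Oas3 (0.97), Uba7 and Dtx1 (both 0.96). Jund ran with Cotl1 (0.92), Cd52 and Anp32a, and Fosl1 with Hivep3 (0.95), Xcl1 and Ccl4. Atf3 ran with Nfkb2 (0.93), Gfi1 and Nfkbib. Batf had no close neighbour, with Dffa highest at 0.76. Among the members themselves Fos and Fosb had an r of 0.97 and Jun and Junb 0.96, while Fosl2 had -0.20 with Fos and 0.81 with Atf3.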

How the data were processed

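The authors deposited raw read counts per gene for 60 libraries of polyA RNA. The submitters' processing notes name FastQC 0.119.9, STAR 2.7.9a, SAMtools, Picard 2.42.2, Subread, featureCounts 2.0.1 and the build GRCm39, with no settings or strand. Symbols and exon lengths came from GENCODE M21, an annotation of another build, and it named 52081 of 55414 identifiers, which held 99.6% of counts. Promoter windows and their coordinates came from RefSeq on GRCm38.p6, also another build than GRCm39; no coordinates on GRCm39 are given.

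Groups came from the sample titles. Counts were tested with edgeR 4.0.16 in R 4.3.3: filterByExpr at a minimum count of 10, TMM, robust quasi-likelihood F tests in 17 comparisons, a library set term where sets were mixed, and Benjamini-Hochberg adjustment over all genes tested, called under 0.05. Each comparison of genotypes or of anti-IL-2 was fitted on its own groups, and time on all untreated groups of a genotype. Alternatives were DESeq2 1.42.0, its size factors, no filter, no set term, single sets, a replicate block and each library left out. The code was tested on simulated counts. Lists were described by counts and medians. The members and the lists were chosen with earlier results of these data known. From each list up to 4 genes per comparison could be named, called genes first, by smallest adjusted p, and for each member the 3 genes of highest r among those with a mean of at least 4 CPM. The levels of Hspa1a and Egr1 were chosen after their values were seen. Total counts bound the precision of low genes: 3 counts is the floor used for 0.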

Additional observations from a re-analysis of the deposited data

Results flagged for a closer look

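In 73 sets of 4 or 5 libraries (1 member in 1 group), a library that stood far from the rest of its group was seen in 2, where chance at 1 in 20 gives 3.65. Jun stood at 174 CPM in knockout replicate 3 at 6 h, with the next library at 40.1 and the lowest at 23.7 CPM. Fosl1 stood at 1.93 CPM in knockout replicate 2 at 24 h, with the next library at 4.11 and the highest at 5.23 CPM.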

How the results depend on the processing

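The calls over time changed little: over all alternatives 9 members were called at 2 h and 6 between 2 and 6 h in wild type, and 7 to 8 at 24 h, against 8, 5 to 7 and 6 to 9 in the knockout. No called value changed sign. The calls between genotypes were less stable, and the cause was not tested. With no filter on low counts 2 members were called at 0 h (Fos and Jund), 1 with anti-IL-2 (Fosl2), and for genotype by time 6 at 2 h, 2 at 6 h and 1 at 24 h. The 24 h count between genotypes was 0 without the set term, 0 in set B alone and 0 in set C alone. With DESeq2 1 member was called between genotypes with anti-IL-2. For anti-IL-2 in wild type 3 were called against set B alone and 3 against set C alone. With 1 library left out at a time, the counts between genotypes ran from 0 to 1 at 2 h (Jund, without wild-type replicate 5), 0 to 2 at 24 h and 0 to 1 with anti-IL-2, and those for anti-IL-2 from 0 to 1 in wild type and 0 to 2 in the knockout.

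Counts over all genes moved by more than 1.5 times in these comparisons: between genotypes from 81 at 0 h to 6 and 477, from 8 at 2 h to 3 and 230, from 4 at 6 h to 3 and 28, from 48 at 24 h to 3 and 362, and from 47 with anti-IL-2 to 10 and 191 at the lowest and highest. For anti-IL-2 they moved from 584 to 145 and 3857 in wild type and from 721 to 264 and 1616 in the knockout. Genotype by time moved from 0 to 118 at 2 h, 0 to 123 at 6 h and 22 to 11 and 281 at 24 h, and genotype by anti-IL-2 from 0 to 1.

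Library numbers 10 apart in set A were tried as a replicate block, although the correlation of deviations was over 0.1 in 7 of 20 pairs: 7 of 10 in the knockout (0.04 to 0.49) and 0 of 10 in wild type (-0.03 to 0.08). With the block the counts of members were 9 and 6 in wild type and 8 and 7 in the knockout at 2 h against 0 h and at 6 h against 2 h, with Atf3 added (-0.79, adjusted p = 0.00825, edgeR). Each library correlated best with its own number in 6 of 10 wild-type and 8 of 10 knockout pairs, a hint from the data and not the design. Of 70 family shares, 36 moved by more than 1 SD with the longest transcript as length and 56 in counts; both measures, and leaving out knockout replicate 6 at 0 h, were chosen after seeing the data.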
